A study of Mus musculus with 2 samples.

Results

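C1q-high macrophages of the mouse kidney were picked out of 2 single-cell RNA libraries by their C1q transcripts, and 403 cells of the 25702 kept met the rule. A cell was taken if C1qa, C1qb and C1qc together gave at least 5 UMIs and at least 0.5% of its UMIs (unique molecular identifiers, each standing for 1 captured transcript). S100a8 and S100a9 together had to stay below 2% of its UMIs, and Cd3e and Cd79a at 0 UMIs. Barcodes entered with 200 genes or more, a total between 500 and 150000 UMIs, and no more than 55% of it from mitochondrial genes. The rule took 189 cells of the control library and 214 of the ischemia library. The members were thus chosen by their measured C1q, S100a8, S100a9, Cd3e and Cd79a counts, which are given below as a description.

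Both libraries were made from kidneys of male wildtype C57BL/6J mice aged 19 weeks. The ischemia library came from a kidney after 27 min of ischemia and 24 h of reperfusion, and the control library from the uninjured kidney of the other side. The study's design text reads as if both kidneys came from 1 mouse. They were digested to single cells and were run on the 10x Genomics platform without a sort for leukocytes. The question taken up here is how the macrophages of the 2 kidneys differed apart from the genes of the IL-1 system. With 1 library per condition there was no replicate, no test between the conditions was possible, and the kidney, the digest and the library cannot be told apart from the ischemia. All intervals are exact 95% intervals that cover counting error only.

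Kidney macrophages lie between the tubules, where they take up debris and immune complexes and present antigen on MHC class II molecules. C1q, the recognition unit of the classical complement pathway, is made largely by tissue macrophages, and Adgre1 encodes F4/80, the surface protein long used to mark them. After ischemia, monocytes enter the kidney from the blood and can turn into macrophages there, while resident cells can release chemokines, clear dying tubule cells and take part in repair.

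All kept cells together gave 124679362 control UMIs and 128733541 ischemia UMIs. The members carried 1068984 UMIs in the control library, against 2071608 in the other. A median of 5287 UMIs from 1853 genes was read per member of the control, and of 8885.5 UMIs from 2640.5 genes per member of the ischemia library. The ischemia cells were thus read more deeply, and shares of positive cells are given below after a random draw of 1000 UMIs from each cell (thinning), which left out 2 control members and 1 ischemia member. Plain counts of cells with a UMI are at full depth and are not matched for this difference. Mitochondrial UMIs took a median of 4.94% and 3.77%. Barcodes found in both libraries numbered 88, and of these 3 belonged to control members, 2 to ischemia members and 0 to members of both.

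C1q-high cells made up 1.5% of the kept control cells (189 of 12586, 1.3% to 1.73%) and 1.63% of the kept ischemia cells (214 of 13116, 1.42% to 1.86%), and the intervals overlapped. Among myeloid cells the shares stood further apart. C1q-low myeloid cells, which failed the C1q part of the rule but had at least 5 UMIs and 0.5% of UMIs from Lyz2, Csf1r and Lst1, numbered 16 in the control library but 209 after ischemia. C1q-high cells were therefore 92.2% of the myeloid cells of both kinds in the control (87.6% to 95.5%) but 50.6% after ischemia (45.7% to 55.5%). The digest and the cell capture can set such shares, and their part was not tested.

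The median member had 1.25% of its UMIs from the 3 C1q genes in the control kidney and 1.22% after ischemia, values that the rule itself bounds from below. Near the limit, 9 control and 13 ischemia cells lay between 0.4% and 0.5% and stayed outside, while 10 and 13 cells lay between 0.5% and 0.6% and were inside. Pooled over the members and scaled to counts per 1000000 of their UMIs (CPM), C1qa was at 4959.9 CPM in control members against 4632 CPM in ischemia members. C1qb was at 5100.2 and 4953 CPM, and C1qc at 2739 and 2703 CPM. These genes chose the cells, and their levels are given as a description.

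Adgre1, the remaining marker of the population, was not part of the rule. It was at 300.3 CPM (268 to 335) in control members against 288 CPM (265 to 312) in ischemia members, a ratio of 0.958 (0.835 to 1.10), so its intervals overlapped. After thinning, 23% of control and 22.5% of ischemia members had an Adgre1 UMI, against 0% of thick ascending limb (TAL) cells in both libraries. At full depth the shares of members were 67.2% and 74.8%. TAL cells were taken by Umod and Slc12a1 UMIs, should lack the gene and serve here as the background of free RNA. Their median depths of 14212.5 and 21808 UMIs were also brought down to 1000. TAL cells also had to be without UMIs of the leukocyte genes Ptprc and Tyrobp. That can leave out cells with free leukocyte RNA, so the TAL shares here and below may be too low as a background. Cx3cr1, the fractalkine receptor of resident kidney macrophages, was at 413 and 447 CPM, with a ratio of 1.08 (0.967 to 1.22). Csf1r, the receptor that macrophages need to survive, was lower in the ischemia library at 329.7 CPM against 454 CPM.

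The label of a resident type rests on these markers and not on the absence of monocyte genes. The share of TAL cells with Adgre1 bears on free RNA only. Levels of Adgre1, Cx3cr1 and Csf1r in the C1q-low cells are not described in the text, and Csf1r helped to choose those cells. Whether these 3 markers set the members apart from monocytes or newly entered macrophages was not tested. Ccr2, the receptor that draws monocytes out of the blood, was found in 54 control and 83 ischemia members, at 172 and 191 CPM. Plac8, which is abundant in monocytes, was at 17.8 and 48.8 CPM in the members but at 1601 and 1518 CPM in the C1q-low cells of the same libraries. Ly6c2, the classical monocyte antigen, gave 1 control UMI and 36 ischemia UMIs in the members. Of the genes of long-lived and perivascular macrophages, Timd4 gave 1 and 3 UMIs, and Lyve1 gave 8 and 32 UMIs. The members carried the C1q genes by the rule, and most had Adgre1 UMIs at full depth in both libraries. A part of the cells had Ccr2 UMIs at full depth. These Ccr2 counts are not set against a background share here, and Timd4 and Lyve1 were close to 0.

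**Figure D1:**
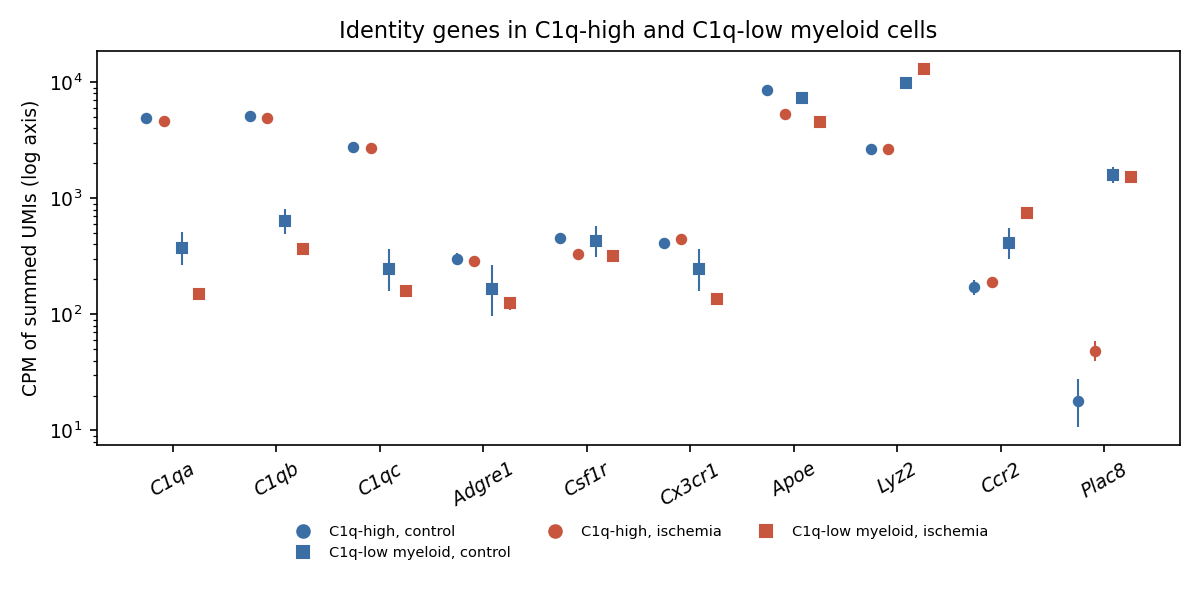
CPM of 10 identity genes on a log axis, with 95% counting intervals, in C1q-high cells (circles) and C1q-low myeloid cells (squares) of the control (blue) and ischemia (red) libraries. C1qa, C1qb and C1qc chose the cells, Adgre1 was at 300.3 and 288 CPM in the C1q-high cells, and Plac8 was lower there than in the C1q-low cells of both libraries.

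The 10 genes with the highest ratio of C1q-high to C1q-low myeloid cells in both libraries were C1qa, C1qb and C1qc, a protease gene, a lectin gene, 2 adaptor genes and 3 chemokine genes. Mmp12, a macrophage elastase, was at 333 CPM in control members and 19.6 CPM in control C1q-low cells, and at 72.4 and 3.56 CPM in the ischemia library. Mgl2, a galactose-binding lectin, was at 225 CPM in ischemia members against 2.03 CPM in ischemia C1q-low cells. The chemokine genes Ccl3, Ccl4 and Ccl12 were likewise higher in members, with Ccl4 at 3133 against 337 CPM in the ischemia library. Blnk and Scimp, which encode adaptors of immune receptors and of MHC class II signals, completed the group. Only 16 C1q-low cells stood behind each control value. The gate that divided the cells fixed the C1q genes in this order, so the order is a description.

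Between the kidneys, 6435 genes had at least 50 UMIs over both libraries in the members and were counted. Of these, 410 (6.37%) were at least 2-fold higher in the ischemia library and 248 (3.85%) at least 2-fold lower. These shares are the background for the counts in each group below. The median counted gene had a log2 ratio of 0.17, which is a ratio of 1.13, and the ratios below are not centred on it. When the median-of-ratios method set the scale, 249 genes were at least 2-fold higher and 362 lower, so the share of higher genes among those past 2-fold went from 62.3% to 40.8%. Calls near 2-fold therefore depend on the scale, and counts under that scale are given below beside many of the groups.

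Genes of tubule cells, found at low levels in the members, were among those on the lower side. All 18 counted genes of the proximal tubule list were at least 2-fold lower in ischemia members, and the sum over all 20 genes of the list went from 6918 to 2737 CPM. Kap, an androgen-regulated gene of the proximal tubule and the most abundant of the list in the control, was at 2334 and 939 CPM. All 6 counted genes of the distal tubule list were lower as well. With each cell's CPM averaged in place of pooling, 13 of the 18 and 5 of the 6 were past 2-fold, and with a stricter C1q gate of 10 UMIs and 1% 2 of 3 counted distal genes were. In barcodes under 1000 UMIs without leukocyte genes, the same proximal tubule genes took 4.08% of control and 2.95% of ischemia UMIs, against 0.692% and 0.274% in the members, which is 16.9% and 9.28% of the level in those barcodes. Subtracting the profile of these barcodes (the low-depth profile) left 161 genes at least 2-fold lower and 542 higher. In each library the profile was scaled to the members' own sum over the proximal tubule list, so the removal of that list was fixed by the method. It therefore does not show where these UMIs came from. After it, 1 gene of each tubule list was still counted, with 0 past 2-fold. The genes with the highest and lowest ratios named below were at least 2 times as high in the members as in non-leukocyte cells. This was asked only in the library where the members' level of the gene was higher. Non-leukocyte cells are kept cells with 0 UMIs of the C1q genes, Ptprc and Tyrobp. Of 1915 counted genes that met this limit, 214 (11.2%) were at least 2-fold higher and 81 (4.23%) at least 2-fold lower. A gene could pass through the library where it was high, so these shares are a description and not a background.

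**Figure D2:**
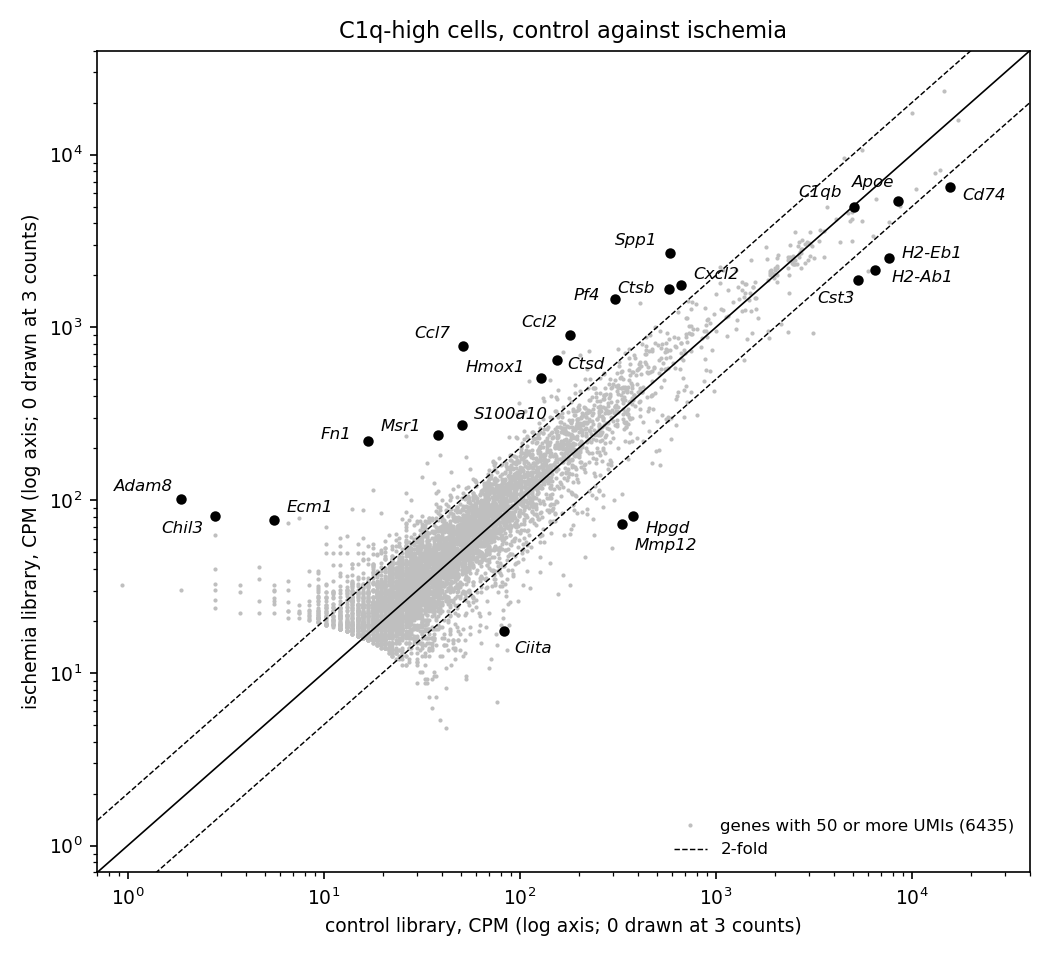
CPM of 6435 genes in C1q-high cells of the control (x axis) and ischemia (y axis) libraries, both on log axes, with a gene at 0 UMIs drawn at 3 counts. The solid line marks equal levels and the dashed lines 2-fold; Ccl7, Ccl2, Pf4, Spp1 and Fn1 lie above them, and H2-Eb1, Cd74, Ciita, Hpgd and Mmp12 below.

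Most counted genes of MHC class II were lower in ischemia members. Of 11 genes on the list, 8 were counted, 7 were at least 2-fold lower and 0 higher, with a median log2 ratio of -1.44 against 0.17 over all counted genes. The same 7 genes were past 2-fold under the median-of-ratios scale, without the cells that carried monocyte genes and without the cells that carried tubule or endothelial genes. H2-Eb1, a β chain of the peptide-binding molecule, was at 7677 CPM (7512 to 7845) in control members against 2529 CPM (2461 to 2598) in ischemia members, a ratio of 0.329 (0.318 to 0.341). H2-Ab1, the other β chain, was at 6516 and 2164 CPM, a ratio of 0.332 (0.320 to 0.345). H2-Aa, its α chain partner, was at 5959 and 2136 CPM. The intervals of the 2 libraries lay far apart for all 3 genes.

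The partners of these chains were lower too. Cd74, the invariant chain that guides class II molecules to the endosome, was at 15724 CPM in control members against 6512 CPM in ischemia members, a ratio of 0.414 (0.405 to 0.424). H2-DMa, which with H2-DMb1 forms the molecule that loads the peptide, was at 512 and 195 CPM. H2-DMb1 was at 494 and 194 CPM. Ciita, the coactivator that switches on class II transcription, gave 89 UMIs in 53 control cells and 36 UMIs in 24 ischemia cells, a ratio of 0.209 (0.138 to 0.311). Ctss, the protease that trims the invariant chain, was the exception of the list at 2046 and 1828 CPM, a ratio of 0.894 (0.847 to 0.942).

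Over single cells, the class II genes took a median of 4.13% of a control member's UMIs and 1.16% of an ischemia member's. The middle range from the 25th to the 75th percentile was 2.87% to 5.12% in control cells but 0.604% to 2.09% in ischemia cells, so these ranges did not overlap while the full ranges did. Of the ischemia members, 135 of 214 (63.1%, 56.2% to 69.6%) lay below the 10th percentile of the control, which was 1.55%. After thinning, 96.8% of control but 66.7% of ischemia members had an H2-Eb1 UMI, against 0.543% and 0% of TAL cells, and at full depth in 98.9% and 90.2%. The level in ischemia members was still above that of the ischemia C1q-low cells, where H2-Eb1 was at 497 CPM and Cd74 at 2153 CPM. Cells within 1 library share their source and are not replicates.

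**Figure D3:**
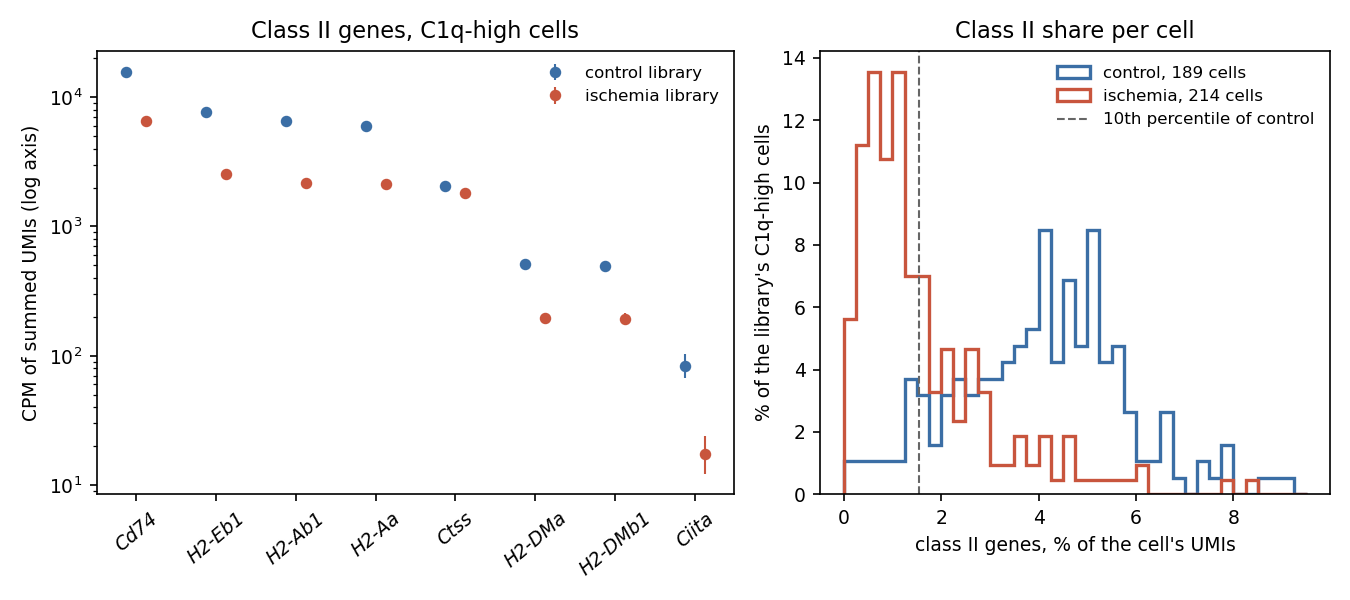
Left, CPM of the 8 counted class II genes on a log axis with 95% counting intervals in C1q-high cells of the control (blue) and ischemia (red) libraries. Right, the share of each cell's UMIs that came from the class II list, as a percentage of the cells of each library; 63.1% of ischemia cells lay below the dashed line at the control's 10th percentile.

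Class II genes are known to be switched on together through short promoter elements, the X box and the Y box, to which Ciita is recruited by DNA-bound factors. The bases before the start of 3 of the genes that were lower together (H2-Eb1, H2-Aa and H2-DMb1) are shown here. The letters of the Y box can be read in them. The X box was not searched for, so whether the stretches or the marked shared run hold it was not tested. They run from base 120 to base 21 before the RefSeq start site, 5′ to 3′ on the strand of the gene, in build GRCm38.p6. Capitals mark the letters ATTGG of the Y box, on either strand, and the longest run of bases that any pair of these 3 promoters shared, which is AACTGATGATGCT in H2-Eb1 and H2-DMb1.
H2-Eb1, chr17:34305747-34305846, plus strand: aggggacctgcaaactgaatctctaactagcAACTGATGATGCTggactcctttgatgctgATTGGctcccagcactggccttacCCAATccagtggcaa
H2-Aa, chr17:34287844-34287943, minus strand: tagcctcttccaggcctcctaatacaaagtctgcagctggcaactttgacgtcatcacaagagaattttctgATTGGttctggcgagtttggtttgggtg
H2-DMb1, chr17:34153071-34153170, plus strand: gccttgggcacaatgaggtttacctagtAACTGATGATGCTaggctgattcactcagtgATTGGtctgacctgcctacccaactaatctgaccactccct

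In the 250 bases before the start, ATTGG was found on either strand in 6 of the 8 genes of the list that were searched, at bases 59 to 55 before the start in H2-Eb1 (and on the other strand at bases 35 to 31, where it reads CCAAT), 48 to 44 in H2-Aa and 61 to 57 in H2-DMb1. The other genes that held it, H2-Oa, H2-DMb2 and H2-Ob, had too few UMIs to be counted. It was not found in H2-DMa, which was at least 2-fold lower, or in Ctss. It is a short run, and 33.8% of all 32851 promoters of the table hold it. The shared run of 13 bases lay further from the start, at bases 89 to 77 in H2-Eb1 and 92 to 80 in H2-DMb1, and was found on either strand in 2 of all promoters, these 2. The longest runs that H2-Aa shared with the others had 8 bases, CTGATTGG with H2-Eb1 and TGATTGGT with H2-DMb1, and both overlap ATTGG. The shared runs were picked after the sequences were seen. Such a match describes the letters and does not show that a factor was bound. Cd74, H2-Ab1 and Ciita were not searched.

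Other parts of antigen presentation moved less. Of 12 counted MHC class I genes, 0 were at least 2-fold higher and 1 was lower, with a median log2 ratio of -0.08. B2m, the light chain of class I molecules, was at 1588 and 1486 CPM, a ratio of 0.935 (0.881 to 0.993). The 1 gene past 2-fold was H2-T23, a nonclassical class I gene, at 222 and 83.5 CPM. Of 6 counted costimulatory and adhesion genes, 0 passed 2-fold in either direction, and Cd86, a ligand of the T cell receptor's coactivator CD28, was at 476 and 336 CPM. Cst3, a cysteine protease inhibitor, belongs to the 15 genes with the lowest ratios and was at 5352 and 1890.3 CPM.

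Further genes with the lowest ratios were Rnase6, Hpgd, Mmp12, Ptpro, Ppfia4, Glcci1, Ighm, Lifr, Mmp13, Lilra5 and Tagap. Hpgd, which breaks down prostaglandins and is known from resident macrophages, was at 378 CPM (342 to 417) in control members against 80.6 CPM (68.9 to 93.8) in ischemia members, a ratio of 0.213 (0.177 to 0.256). Mmp12 was at 333 and 72.4 CPM, and Mmp13, a collagenase, at 104 and 32.3 CPM. Rnase6, a ribonuclease with antimicrobial action, gave 82 and 30 UMIs. Lilra5, an immunoglobulin-like receptor of myeloid cells, was at 237 and 78.2 CPM. Ighm, the heavy chain of IgM, gave 152 and 90 UMIs while the B cell gene Pax5 was at 0 UMIs in both libraries and Cd79a was at 0 by the rule.

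Of the 17 counted identity genes of resident macrophages, Hpgd was the only one past 2-fold, though under a stricter C1q gate of 10 UMIs and 1% 2 of 16 counted were higher. Apoe, a lipid carrier made in quantity by macrophages, was at 8549 CPM in control members against 5366 CPM in ischemia members, a ratio of 0.628 (0.610 to 0.645). It was also at 7377 and 4579 CPM in the C1q-low cells and in 10.7% and 6.16% of thinned TAL cells. Trem2, a lipid-sensing receptor, was in the other direction at 96.4 and 178 CPM, as was Ms4a7 at 475 and 752 CPM. The median log2 ratio of the list was -0.21.

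Some chemokine genes stood on the higher side. Of 20 on the list, 16 were counted, 7 were at least 2-fold higher and 0 lower, with a median log2 ratio of 0.90, and the same 7 were past 2-fold under the median-of-ratios scale. Ccl2, the main chemokine for monocytes that carry CCR2, was at 179.6 CPM (155 to 207) in control members against 907 CPM (866 to 949) in ischemia members, a ratio of 5.05 (4.35 to 5.89). It was found in 6.95% of thinned control and 36.6% of thinned ischemia members, against 0.136% and 0.237% of TAL cells, and at full depth in 12.7% and 62.6% of members. Ccl7, another ligand of CCR2, was at 51.5 and 784 CPM, a ratio of 15.2 (11.7 to 20.3), and was found in 2.67% and 22.5% of thinned members with 0% of TAL cells. Ccl12, a further ligand of that receptor in the mouse, was at 639.9 and 1234 CPM and so stayed under 2-fold, with a ratio of 1.93 (1.77 to 2.10).

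Ischemia C1q-low cells also carried Ccl2, at 1145 CPM, while Ccl7 and Ccl12 were lower there than in members, at 244 and 51.8 CPM. Pf4, a chemokine best known from platelets, was at 306 and 1455 CPM in members, a ratio of 4.76 (4.24 to 5.35). Ccl6 was at 166 and 717 CPM and Ccl9 at 97.3 and 315 CPM, both ligands of CCR1 in the mouse. Cxcl2, which draws in neutrophils, was at 663 and 1754 CPM. It was found in 15.5% of thinned control and 28.2% of thinned ischemia members, with 0.136% and 0.237% of TAL cells. Cxcl3, a related gene under the count limit, gave 1 control UMI and 30 ischemia UMIs, a ratio of 15.5 (2.57 to 632).

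Ccl4 and Ccl3, which most control members carried, were lower in the ischemia library. Ccl4, a chemokine for monocytes and T cells, was at 4304 CPM (4181 to 4430.3) in control members against 3133 CPM (3057 to 3210.0) in ischemia members, a ratio of 0.728 (0.701 to 0.756). Ccl3, which also acts on these cells, was at 1651 and 1128 CPM, a ratio of 0.683 (0.642 to 0.727). Cxcl16, a membrane-bound chemokine that also binds oxidised lipid, was at 545 and 499 CPM. Ccl3 and Ccl4 were found in 52.9% and 64.7% of thinned control members, and in 37.1% and 55.9% of thinned ischemia members. In TAL cells the shares were 0.136% and 0% for Ccl3 and 0% and 0.237% for Ccl4.

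Some chemokine values came from very few cells. Of 486 ischemia UMIs of Cxcl10, an interferon-induced ligand of CXCR3, 53.1% were in 1 cell, and without that cell the ratio was 4.23 (2.85 to 6.51) in place of 8.96 (6.12 to 13.6). Cxcl13, which attracts B cells, gave 162 UMIs in the ischemia library and 0 in the control, but 93.2% of them were in 1 cell, only 3 cells had any, and without that cell the 11 UMIs left gave a ratio of at least 1.91. Ccl8 was higher at 338 against 187 CPM, with 91.5% of the control UMIs and 36.3% of the ischemia UMIs in 1 cell each. For Ccl2 the 10 highest cells of the ischemia library held 39.6% of the UMIs, and for Ccl7 43.3%.

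**Figure D4:**
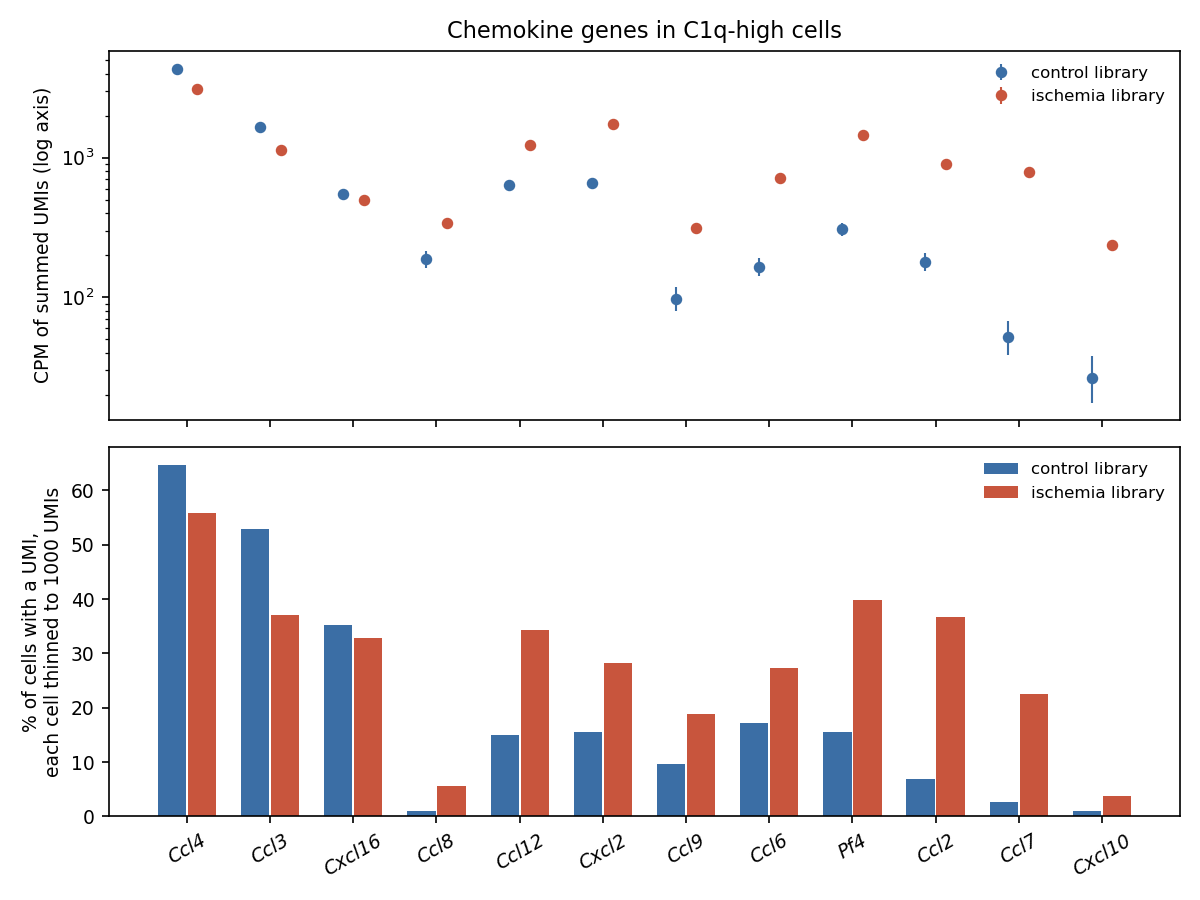
Top, CPM of 12 chemokine genes on a log axis with 95% counting intervals in C1q-high cells of the control (blue) and ischemia (red) libraries. Bottom, the percentage of cells with at least 1 UMI of the gene after each cell was thinned to 1000 UMIs; Ccl2 went from 6.95% to 36.6%, while Ccl4 was at 64.7% and 55.9%.

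Of 8 counted receptors for chemoattractants, Ccr1 was at least 2-fold higher, at 44.0 and 100.4 CPM, and Cxcr4 at least 2-fold lower, at 35.5 and 15 CPM. Neither call held under every alternative: the log2 ratio of Ccr1 went from 1.19 to 0.91 under the stricter C1q gate of 10 UMIs and 1% and to 0.31 without the cells that carried monocyte genes, and that of Cxcr4 from -1.25 to -0.39 under the looser gate of 3 UMIs and 0.25%. C5ar1, the receptor of the complement fragment C5a, was at 378 and 555 CPM. Cytokine genes outside the IL-1 family were mostly low. Of 10 counted, Osm, a cytokine of the IL-6 family, was the 1 gene past 2-fold, with 13 UMIs in 10 control cells and 87 UMIs in 42 ischemia cells, a ratio of 3.45 (1.92 to 6.74). After thinning, Osm was found in 1.07% and 1.88% of members with 0% of TAL cells. Tnf was at 185 and 161 CPM, a ratio of 0.868 (0.726 to 1.04) whose interval holds 1. Il6 gave 0 and 2 UMIs, and Il10 gave 0 and 7 UMIs, so few UMIs that no ratio is given.

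Of 24 counted lysosomal and lipid genes, 9 were at least 2-fold higher and 0 lower, with a median log2 ratio of 0.85, and 6 were higher under the median-of-ratios scale. Ctsd, the main aspartic protease of the lysosome, was at 155 CPM (133 to 181) in control members against 645 CPM (611 to 681) in ischemia members, a ratio of 4.16 (3.53 to 4.91). Ctsb, a cysteine protease, was at 578 and 1672 CPM, a ratio of 2.89 (2.65 to 3.16). Non-leukocyte cells also carried both genes and also differed, with Ctsd at 293 and 749 CPM and Ctsb at 308 and 659 CPM there. With the low-depth profile subtracted, 8 genes of the list were at least 2-fold higher.

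Plin2, the coat protein of lipid droplets, was at 153 and 396 CPM. Abca1, which exports cholesterol, was at 40.2 and 100.4 CPM, and Lpl, which frees fatty acids from lipoproteins, at 109 and 234 CPM. Cd68, a glycoprotein of the macrophage lysosome that non-leukocyte cells hardly carried, was at 321 and 600.5 CPM, a ratio of 1.87 (1.66 to 2.12). Ctsc, Psap and Npc2, also lysosomal, had ratios of 1.20, 1.21 and 1.04. Fabp4, a fatty acid carrier of macrophages and endothelium, had 69.1% of its ischemia UMIs in 1 cell, and its ratio without that cell was 3.49 (1.57 to 9.16).

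Of 14 counted genes for the uptake of dead cells, 3 were at least 2-fold higher and 0 lower, and the 3 were Msr1, Cd36 and Lrp1. Msr1, the class A scavenger receptor, was at 38.4 CPM (27.5 to 52.0) in control members against 238 CPM (217 to 259.9) in ischemia members, a ratio of 6.20 (4.51 to 8.76), and was found in 2.67% and 17.8% of thinned members with 0% of TAL cells. Cd36, which binds oxidised lipid, was at 145 and 401 CPM. Lrp1 was at 56.1 and 153 CPM. Mertk and Axl, the receptor kinases that read phosphatidylserine through bridging proteins, were at 28.1 and 38.6 CPM and at 140.3 and 125 CPM, with ratios of 1.38 (0.894 to 2.17) and 0.891 (0.726 to 1.10). Both intervals hold 1.

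The complement genes outside C1q went in both directions. Of 11 counted, 3 were at least 2-fold higher and 2 lower, against 2 and 3 under the median-of-ratios scale and 1 and 0 under the stricter C1q gate. Cfp, the properdin that stabilises the alternative pathway, was at 53.3 and 177 CPM, a ratio of 3.32 (2.51 to 4.47). Itgam, the CD11b chain of complement receptor CR3, was at 125 and 280.5 CPM, and Cd55, an inhibitor, gave 7 and 43 UMIs. Cfb and C3, of the alternative pathway, were lower with 47 and 36 control UMIs against 35 and 31 ischemia UMIs, which is 44.0 and 33.7 CPM against 16.9 and 15 CPM. Non-leukocyte cells carried both, at 130.4 and 32.5 CPM in control non-leukocyte cells. Itgax, which encodes CD11c, was at 72.0 and 76.8 CPM, a ratio of 1.07 (0.807 to 1.42). Of 6 counted immunoglobulin receptor genes, 0 passed 2-fold, and the largest ratio was that of Fcgr1, the high-affinity IgG receptor, at 1.70 (1.42 to 2.04).

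Genes of matrix, proteases and growth factors held many of the largest ratios. Of 20 counted, 11 were at least 2-fold higher and 2 lower, with a median log2 ratio of 1.15, and 9 and 2 under the median-of-ratios scale. Spp1, osteopontin, was at 587 CPM in control members against 2702 CPM in ischemia members, a ratio of 4.60 (4.23 to 5.0). Non-leukocyte cells had more of it in both libraries, at 3338 and 26423 CPM. The log2 ratio in members was 2.20, and 2.64 with the low-depth profile subtracted. Fn1, fibronectin, was at 16.8 and 221 CPM, a ratio of 13.1 (8.20 to 22.3), in 5 control and 26 ischemia cells. Thbs1, thrombospondin, gave 6 and 157 UMIs, and Ecm1, an extracellular matrix protein, 6 and 159 UMIs, the latter in 50 ischemia cells. The log2 ratio of Ecm1 went from 3.77 to 2.35 without the cells that carried monocyte genes.

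Tgfbi, an adhesion protein of the matrix, was spread over more cells, with UMIs in 19.8% and 45.1% of thinned members (0.136% and 0.237% of TAL cells) and levels of 319 and 752 CPM, a ratio of 2.36 (2.10 to 2.66). Cd44, the receptor of hyaluronan and osteopontin, was at 87.9 and 233 CPM, and Plaur, the urokinase receptor, at 16.8 and 54.1 CPM. Areg, a growth factor for epithelium that acts on the EGF receptor, was at 15.9 and 88.3 CPM, from 5 control and 17 ischemia cells, and its log2 ratio went from 2.47 to 1.38 under the stricter gate of 10 C1q UMIs and 1%. Igf1 and Pdgfb, further growth factors, were at 43.0 and 47.3 CPM and at 174 and 146 CPM, with intervals of the ratio that hold 1. Mmp14, a membrane protease, was at 33.7 and 74.3 CPM, while Mmp12 and Mmp13 were the 2 lower genes of the list.

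Genes named for alternative activation did not move as 1 block. Of 9 counted, 5 were at least 2-fold higher and 2 lower, but 3 of these 5 were past 2-fold when each cell's CPM was averaged in place of pooling, which moved the list's median log2 ratio from 1.20 to 0.74. Mrc1, the mannose receptor, was at 155 and 386 CPM, Tgm2, a transglutaminase, at 10.3 and 69.5 CPM, and Il4ra, a chain of the IL-4 receptor, at 32.7 and 75.3 CPM. The log2 ratio of Tgm2 went from 2.76 to 1.87 without the cells that carried monocyte genes and to 4.24 with the low-depth profile subtracted. The lectins Mgl2 and Clec10a were lower, with ratios of 0.381 (0.337 to 0.430) and 0.445 (0.250 to 0.787). Chil3, a chitinase-like protein, was at 0 UMIs in the control and at least 28.7-fold higher in the ischemia library, with 167 UMIs in 18 cells, 52.7% of them in 1 cell. Without that cell the bound was 13.7-fold, with 0 UMIs set to 3 counts of the control pool in both cases. Under the looser gate of 3 C1q UMIs and 0.25% its log2 ratio was 2.58 in place of 4.84.

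Adam8 had the largest ratio of all named genes with a UMI in both libraries. This membrane protease of activated leukocytes gave 2 UMIs in 1 control cell and 210 UMIs in 83 ischemia cells, a ratio of 54.2 (14.8 to 450.3). Thinned, 5.63% of ischemia members, no control member and no TAL cell carried it. Its log2 ratio was 5.76, and 4.42 under the stricter C1q gate. It was also at 164 CPM in the ischemia C1q-low cells. Clec4d, a lectin receptor for microbial glycolipids, gave 15 UMIs in 3 control cells and 185 UMIs in 68 ischemia cells. Nrp2, a receptor of semaphorins and VEGF, gave 11 and 115 UMIs in 10 and 53 cells. Iigp1, an interferon-induced GTPase, gave 8 and 164 UMIs, with 53.7% of the latter in 1 cell.

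Of 20 counted S100, annexin and galectin genes and their cytoskeletal partners, 9 were at least 2-fold higher and 0 lower, with a median log2 ratio of 0.75, and 7 under the median-of-ratios scale. S100a10, the partner of annexin A2 at the membrane, was at 50.5 CPM (37.9 to 65.9) in control members against 272 CPM (249.8 to 295) in ischemia members, a ratio of 5.38 (4.06 to 7.25). Anxa2 itself was at 44.9 and 145 CPM, and Anxa1 at 10.3 and 49.2 CPM. Vim, the intermediate filament vimentin, was at 143 and 494 CPM, Lgals1, galectin 1, at 411 and 1389 CPM, and Lgals3, galectin 3, at 488 and 1011 CPM. S100a4 was found in 4.28% and 16.9% of thinned members, at 112 and 488 CPM. Without the cells that carried monocyte genes, described below, the log2 ratio of S100a4 went from 2.12 to 0.43 and that of S100a6 from 1.71 to 0.55. S100a10 and S100a6 were also higher in ischemia non-leukocyte cells, at 707 against 174 CPM and 628 against 127 CPM.

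A part of the ischemia members carried UMIs of 5 genes that are high in monocytes or in macrophages shortly after they enter a tissue. Cells with at least 3 UMIs of Chil3, Fn1, Thbs1, Ly6c2 and Vcan together numbered 3 of 189 in the control (1.59%, 0.329% to 4.57%) and 31 of 214 in the ischemia library (14.5%, 10.1% to 19.9%), counted at full depth, which was greater after ischemia. In the ischemia library the class II genes took a median of 1.16% of a cell's UMIs both in these 31 cells and in the others. Of 12 counted genes of the monocyte list, 6 were at least 2-fold higher and 0 lower, against 5 and 1 under the median-of-ratios scale. Lyz2, which the list also holds, was at 2669.8 and 2653 CPM in members and at 12923 CPM in ischemia C1q-low cells. Without the 31 and 3 cells, 384 genes were at least 2-fold higher and 207 lower. The monocyte list, which shares genes with that definition, then had 0 of 8 counted genes higher and 1 lower. Of the 9 S100 and annexin genes past 2-fold, S100a4, S100a6 and S100a11 lost the call. Of the 11 matrix genes, 9 still had enough UMIs to be counted and 8 of these stayed past 2-fold. Fn1 and Thbs1, described above with the matrix genes, are part of that definition too, so it bears on the matrix count. All 7 chemokine genes and all 7 class II genes stayed past 2-fold.

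Of 21 counted iron and redox genes, 6 were at least 2-fold higher and 0 lower, with a median log2 ratio of 0.89; the count was 4 under the median-of-ratios scale but 11 under the stricter C1q gate and 11 with the low-depth profile subtracted. The sum of the list went from 17357 to 31628 CPM in members and from 17493 to 30940 CPM in non-leukocyte cells. Hmox1, which breaks down heme, was at 129 CPM (108 to 153) in control members against 511 CPM (481 to 543) in ischemia members, a ratio of 3.96 (3.31 to 4.76), and was found in 7.49% and 20.2% of thinned members, with 0.678% and 0.237% of TAL cells. Ftl1, the ferritin light chain, was at 4509.9 and 9592 CPM, and Fth1, the heavy chain, at 10082 and 17337 CPM. Non-leukocyte cells had Fth1 at 8418 and 17407 CPM. Slc40a1, the iron exporter ferroportin, was at 22.5 and 42 CPM, and its log2 ratio went from 0.90 to 1.94 under the stricter gate. Mt2 and Lcn2, a metallothionein and a siderophore-binding protein, had ratios of 4.26 and 6.44, but non-leukocyte cells of the ischemia library carried more of both, at 536 and 1294 CPM.

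Genes of the cell cycle had a median log2 ratio of 1.46, with 14 of 20 counted at least 2-fold higher and 0 lower, with 12 under the median-of-ratios scale and 8 of 12 counted under the stricter C1q gate. Top2a, a topoisomerase of dividing cells, gave 13 UMIs in 6 control cells and 113 UMIs in 22 ischemia cells, and Mki67, the proliferation marker, 8 UMIs in 5 cells and 51 UMIs in 10 cells. Pcna, of DNA replication, was at 54.3 and 119 CPM and in 3.21% and 10.3% of thinned members, with 2.04% and 3.79% of TAL cells, and Mcm2 was in 5 and 35 cells. Cells with at least 2 UMIs of 9 genes of mitosis numbered 2 of 189 (1.06%, 0.128% to 3.77%) and 18 of 214 (8.41%, 5.06% to 13%) at full depth. After thinning they numbered 0 of 187 and 3 of 213, with 0 of 737 and 0 of 422 TAL cells, so at equal depth the difference rested on 3 cells.

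Markers of other cell types were followed over their whole lists. Endothelial genes were low, with a sum of 39.3 CPM in control and 174 CPM in ischemic members over 14 genes. Of the 2 counted, Eng was at 12.2 and 30.4 CPM and Plvap gave 1 control UMI and 67 ischemia UMIs in 12 cells, and the defining genes Cdh5 and Emcn were at 0 in the control. A single ischemia cell held 94 of the 361 UMIs of the list, and without it the sum was 129 CPM. With the top 8% of doublet scores left out, which took away 5 ischemia members and 12 control members, 1 endothelial gene was counted and 0 were past 2-fold. Of 6 counted tubule injury genes, 3 were at least 2-fold higher and 1 lower. With the low-depth profile subtracted, 2 genes were counted and 1 was higher. The 14 genes of the list in the files summed to 282 and 529 CPM in members against 1064 and 5157 CPM in non-leukocyte cells. Vcam1 was the most abundant of them in the control members and Clu in the ischemia members. Havcr1 and Clu had ratios of 14.3 and 4.62, against 5.16 and 283 CPM for Havcr1 in non-leukocyte cells. Genes of T and NK cells summed to 93.5 and 66.1 CPM with Ccl5 the most abundant in both, those of stroma to 32.7 and 38.1 CPM, and those of mast cells and basophils to 2.81 and 2.41 CPM. Conventional dendritic cell genes summed to 5678 and 2227 CPM, mostly from Cst3, which macrophages also express. Of 4 counted genes of that list, 0 were at least 2-fold higher and 1, Cst3, was lower. The counted genes beside Cst3 are not named here. Flt3, with 3 and 1 UMIs, and Xcr1, with 1 and 0, were under the count limit. Neutrophil genes summed to 93.5 and 172 CPM, with Lcn2 the most abundant in the ischemia library.

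**Figure D5:**
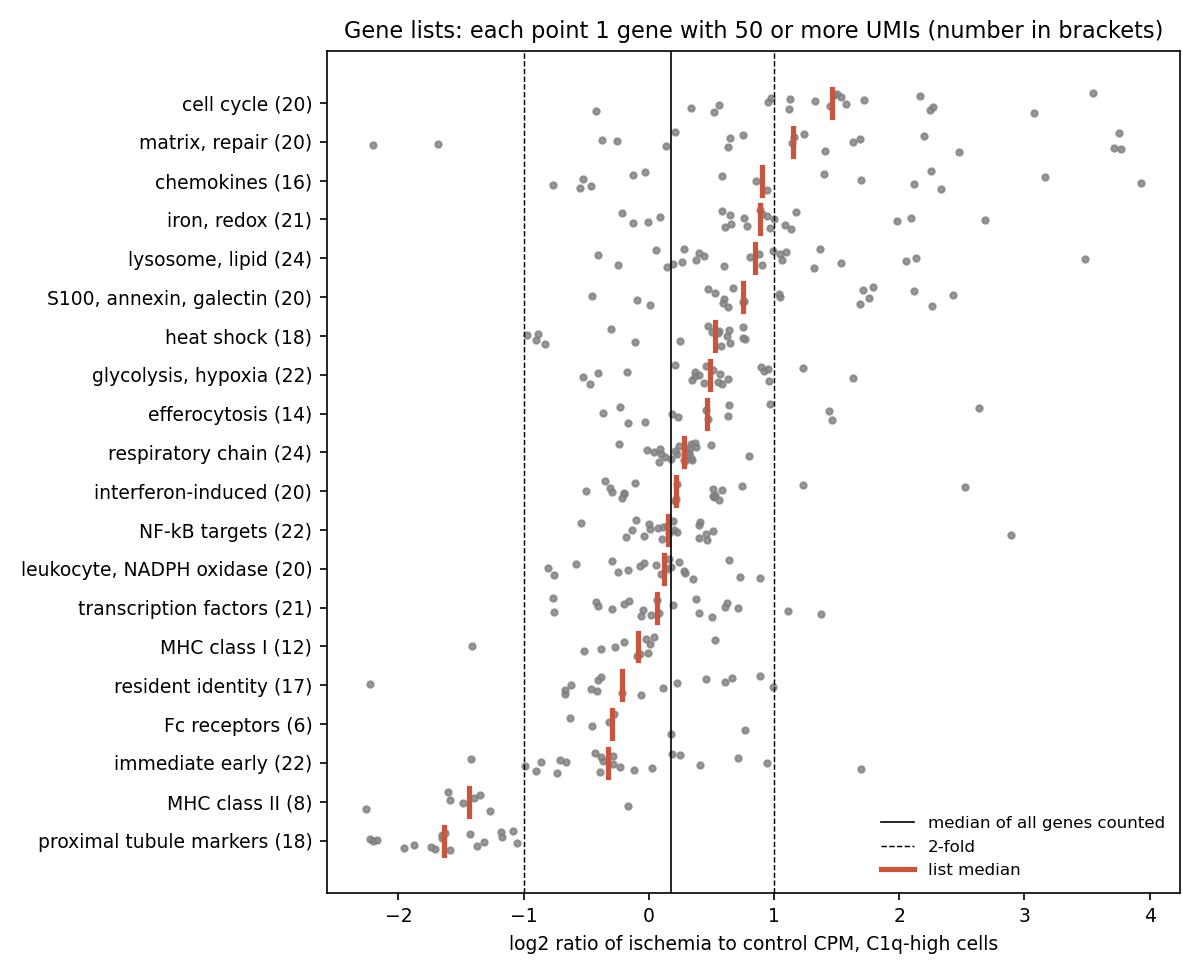
Log2 ratio of ischemia to control CPM in C1q-high cells for 20 gene lists, each point 1 counted gene and each red bar the list median. The black line is the median of all counted genes at 0.17 and the dashed lines are 2-fold; the class II list lies at -1.44 and the cell cycle list at 1.46.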

How the data were processed

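Single-cell suspensions of 1 control and 1 ischemic kidney were run on the 10x Genomics platform, and the submitters' processing notes name Cell Ranger 7.0.0 and the mm10 genome. The deposited files hold UMI counts per gene and barcode as the authors' pipeline wrote them, with no normalization. Of 15110 and 15257 barcodes, 12586 and 13116 passed the limits on genes, UMIs and mitochondrial share.

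UMIs of the members were pooled per library and divided by the pool's total to give CPM. A gene was counted with 50 or more UMIs over both pools and called past 2-fold at a ratio of 2 or more in either direction. Intervals are exact, Poisson for CPM, Clopper-Pearson for shares and conditional binomial for ratios, at 95%. A gene at 0 was set to 3 counts of its pool. PCR copies are removed by the UMIs, but intervals and limits cover counting error only, and no p-value was computed from cells. Members and gene lists were chosen with earlier results of these data known. Named genes were those of the lists, the 15 highest and 15 lowest ratios among certain genes, and the 10 highest ratios to C1q-low cells. The 15 and 15 came from genes with 100 or more UMIs that were at least 2 times as high as in non-leukocyte cells. That limit was applied in the library where the members' level was higher. Non-leukocyte cells and TAL cells were gated by marker UMIs. Scrublet called 0 doublets in either library, so its calls were not relied on, and the 8% of cells with the highest scores were left out as an alternative. Alternatives to the gate, depth limit, scaling, gene filter and pooling (the mean of each cell's CPM) were run as well. Promoter stretches came from RefSeq (GRCm38.p6), where 8 of 11 class II genes were searched. H2-Ab1 and Ciita had no entry there, and Cd74 was left out of the search by its chromosome. The scripts ran in Python 3.11.15 with scipy 1.17.1, scanpy 1.11.5, pandas 2.3.3, matplotlib 3.10.9 and numpy 2.4.6, and the ratio and interval code was tested on simulated data.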

Additional observations from a re-analysis of the deposited data

How the results depend on the processing

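The 7 lower class II genes and the 7 higher chemokine genes were past 2-fold under each alternative to the gate, depth limit, scaling and pooling, except that 6 of each had enough UMIs to be counted after thinning, and those 6 were past it. Among single genes, 5288 values under the alternatives stayed within the counting interval of the ratio and 500 moved out of it, where leaving out Scrublet's calls could move none since it made none. Of 140 genes past 2-fold with values under the alternatives, 1 changed sign under any of them, and of 298 not past 2-fold, 88 did. Other counts depended on the settings. The share of C1q-high cells moved to 1.99% of control and 1.89% of ischemia cells with a mitochondrial limit of 25%, to 2.07% and 2.70% with a minimum of 1000 UMIs, to 1.04% and 1.10% with a gate of 10 C1q UMIs and 1%, and to 1.17% and 1.42% without cells that carried tubule or endothelial markers. In the ischemia library alone it moved to 1.97% with a gate of 3 UMIs and 0.25%, and to 1.40% without the cells with monocyte genes. Genes at least 2-fold higher and lower numbered 249 and 362 under the median-of-ratios scale, where the lower count stayed within 1.5 times, and 101 and 55 of 1064 counted after thinning. They numbered 121 and 61 of 2202 at a limit of 200 UMIs, 1324 and 1594 of 16217 with no filter on genes, and 542 and 161 with the low-depth profile subtracted. Without cells with monocyte genes the median log2 ratio of the monocyte list, which shares genes with that definition, turned to -0.15. The tubule gene Atp6v1g3 turned to 1.23 under the gate of 3 UMIs and 0.25%. Among the genes named with a value past 2-fold, C3, Ccr1, Cd44, Cfb, Cxcr4, Eng, Ftl1, Id2, Il4ra, Itgam, Kap, Lgals3, Lpl, Mgl2, Mmp14, Mrc1, Pcna, Pkm, Plac8, S100a11, S100a4, S100a6 and Umod came under 2-fold in the same direction under at least 1 alternative. Among those named with a value under 2-fold, Ccl12, Ccl8, Fcgr1, Gapdh, Hsp90aa1, Hspa1a, Hspa1b, Isg15, Selenop, Slc40a1 and Trem2 came past it in the same direction under at least 1. The log2 ratio of Cxcl10 went from 3.16 to 1.69, of Ccl6 from 2.12 to 1.28 and of Mki67 from 1.72 to 3.32 without the cells with monocyte genes, and of Folr2 from 2.22 to 4.98 without the top doublet scores. Under the stricter gate Hmox1 went from 1.99 to 3.0, Osm from 1.79 to 2.84 and Plac8 from 1.46 to 3.48. Leaving out cells with monocyte genes, subtracting the low-depth profile, leaving out the 8% highest doublet scores and leaving out shared barcodes were chosen after seeing the data. No paired analysis was possible because each condition had 1 library. The 189 and 214 cells limit low genes most: a gene with 50 UMIs over both pools has a wide ratio, and 9 of 438 counted genes of the lists and named genes had over 50% of their ischemia UMIs in 1 cell.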

Other observations

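Several gene groups of the C1q-high macrophages lay near the median of all counted genes. Over all counted genes, 6.37% were at least 2-fold higher and 3.85% lower, which is the background for the counts here. Of 20 counted interferon-induced genes, 2 were at least 2-fold higher and 0 lower, with a median log2 ratio of 0.22. Isg15, a ubiquitin-like protein, was at 31.8 and 47.8 CPM, and Ifitm3, which blocks virus entry, at 529 and 764 CPM. The 2 genes were Slfn2, at 97.3 and 228 CPM, and Rsad2, with 50.7% of its ischemia UMIs in 1 cell. Of 22 counted targets and feedback genes of NF-kB, 1 was higher and 0 lower, and the median was 0.15. The 1 gene was Il1rn, of the IL-1 system. Nfkbia, the inhibitor of NF-kB, was at 398 and 569 CPM, and Cd14, the coreceptor of endotoxin, at 904 and 879 CPM.

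Immediate early genes, which also answer to warm digestion of tissue, had a median of -0.33, with 1 of 22 counted higher and 1 lower, with 4 lower under the median-of-ratios scale and 3 with the low-depth profile subtracted. The part of the digest in these values was not tested. Fos was at 1288 and 1098 CPM and Jun at 892 and 565 CPM. Klf2, the lower one, was at 182 and 68.1 CPM, and Dusp2, a phosphatase of MAP kinases, was the higher one at 26.2 and 85.0 CPM. Of 18 heat shock and unfolded protein genes, 0 passed 2-fold, but 4 were lower under the median-of-ratios scale and 3 with the low-depth profile subtracted. The inducible chaperones Hspa1a and Hspa1b had ratios of 0.511 (0.456 to 0.573) and 0.542 (0.458 to 0.642), while Hsp90aa1 and Calr, the latter of the endoplasmic reticulum, had ratios of 1.70 (1.52 to 1.90) and 1.56 (1.42 to 1.73).

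Glycolysis and hypoxia genes had a median of 0.49, with 2 of 22 counted higher and 0 lower, but 5 were higher with the mean of each cell's CPM, 5 of 23 under the looser C1q gate and 5 of 19 with the low-depth profile subtracted. Pkm, pyruvate kinase, was at 214 and 504 CPM, Gapdh at 726 and 1415 CPM, and Hilpda, an inhibitor of lipid breakdown, gave 9 and 54 UMIs. Of 24 nuclear genes of the respiratory chain, 0 passed 2-fold and the median was 0.28, but 3 were higher and the median was 0.64 with the low-depth profile subtracted. Among 21 counted transcription factors, 2 were higher and 0 lower, against 6.37% and 3.85% of all counted genes. Under the median-of-ratios scale 1 was higher, and under the looser C1q gate 4 of 23 were. The 2 were Cebpb, of myeloid activation, at 222 and 574 CPM, a ratio of 2.59 (2.25 to 2.99), and Id2 at 109 and 235 CPM. Spi1, which encodes PU.1, was at 413 and 433 CPM, a ratio of 1.05 (0.933 to 1.18). Of 20 general leukocyte and NADPH oxidase genes, 0 passed 2-fold, with a median of 0.12.

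Of 8 counted genes of the perivascular Lyve1 type, 3 were at least 2-fold higher and 0 lower, with a median of 0.71, and 3 and 1 under the median-of-ratios scale. With the top 8% of doublet scores left out, 12 control members and 5 ischemia members among them, 6 were higher and the median was 1.39. The 3 were Pf4, Mrc1 and Folr2, and Folr2, a folate receptor, gave 63 UMIs in 12 ischemia cells, 31.7% of them in 1 cell. Selenop, a selenium carrier, had a ratio of 0.533 (0.476 to 0.597). B cell genes summed to 192 and 81.1 CPM, mostly Ighm, and those of red cells and platelets to 15 and 28 CPM.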
